A study of Mus musculus with 1 sample.

Results

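The haem synthesis enzymes were followed as 8 genes of the mouse pathway, chosen by symbol among the 32285 genes of a single-cell count matrix. They are Alas1, Alas2, Alad, Uros, Urod, Cpox, Ppox and Fech, and all 8 were detected. The matrix came from 1 library of lineage-negative, Kit-positive bone marrow cells, taken from the femora and tibiae of C57BL/6 mice with the genotype Brd9fl/fl, that is, floxed Brd9 with no Mx1-Cre, and served as the control of a study of Brd9 deletion. The mice had received 20 mg/kg of polyinosinic-polycytidylic acid (pIpC), an inducer of interferon, in 3 doses, and the cells were prepared 8 weeks later. The labels place these injections 4 weeks after a transplant of CD45.2(+) donor cells into CD45.1(+) recipients. The study's methods for the single-cell libraries mention no transplant, and the files do not settle which applies. How many animals gave the cells is not given in the sources used here. A second library, of Brd9-deleted cells, was not used here.

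Haem is built from glycine and succinyl-CoA by a chain of enzymes that starts and ends in the mitochondrion. Aminolaevulinate synthase makes the first committed step and exists as 2 genes: Alas1, found in most tissues and held back by haem itself, and Alas2, found in red cell precursors and controlled by GATA1 and by iron. Erythroblasts make far more haem than other marrow cells, for haemoglobin, while developing granulocytes need haem for myeloperoxidase and the oxidase of the phagosome.

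The reference sequence around these genes was searched for letters that some transcription factors read. Whether the matches act in the control of these genes was not tested. All coordinates are GRCm38. Alas1 lies on the minus strand at chr9:106233455-106248654 and Alas2 on the plus strand at chrX:150547375-150570638. Alad is at chr4:62509169-62519918, Uros at chr7:133686243-133710072, Urod at chr4:116989965-116994413 and Ppox at chr1:171275990-171281186, all on the minus strand. Cpox is at chr16:58670292-58717636 on the plus strand. No member overlaps another gene on its own strand in the GENCODE annotation. RefSeq promoter windows were found for 7 members, as 10 windows. The 250 bases before each start were searched on both strands for AGATAA or TGATAA, the letters read by GATA factors, and for CACCC, read by factors of the Klf1 family. Of all 32851 windows, 16.6% held the GATA letters and 52.0% held CACCC. Of the members' 10 windows, 3 held the GATA letters, 1 each of Alas2, Cpox and Uros. CACCC was in 5 of the 10, of Alas1, Alas2, Alad and Cpox, about the share of all windows. Alas2 and Cpox are shown because they had the largest erythroid differences below, and capitals mark the matches.
Alas2 (GRCm38.p6, plus strand, chrX:150547167-150547374): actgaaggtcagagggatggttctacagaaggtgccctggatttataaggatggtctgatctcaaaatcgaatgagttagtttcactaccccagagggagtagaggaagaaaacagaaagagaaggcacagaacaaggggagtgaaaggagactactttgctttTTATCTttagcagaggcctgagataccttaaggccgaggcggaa
Cpox (GRCm38.p6, plus strand, chr16:58669958-58670207): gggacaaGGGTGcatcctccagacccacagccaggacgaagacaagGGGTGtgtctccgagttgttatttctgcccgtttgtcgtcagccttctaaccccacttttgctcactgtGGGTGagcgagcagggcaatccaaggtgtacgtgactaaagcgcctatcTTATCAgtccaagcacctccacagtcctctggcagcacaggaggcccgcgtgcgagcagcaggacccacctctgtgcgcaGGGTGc
The GATA letters began 86 bases before the start in both genes. In Alas2, 3 adjacent CACCC matches stood 40, 35 and 30 bases before the start, in bases that GENCODE counts as exon and that are therefore not printed. Neither Alas1 window held the GATA letters, and both lie largely within annotated Alas1 exons.

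The Alas2 transcript also carries an iron-responsive element in its 5′ untranslated region, the hairpin through which iron-regulatory proteins block translation. A hairpin of 17 bases, with CAGTGN in the loop and 5 paired bases on each side, was found within the first 150 bases of both protein-coding Alas2 transcripts and of none of the 6 of Alas1. It occurred in 38 of 58797 protein-coding transcripts, or 0.0646%. The loop is in capitals.
Alas2 element (GRCm38, plus strand, chrX:150547464-150547480): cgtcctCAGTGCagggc
The counts below are of RNA and do not read this translational control.

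The library held 167452386 unique molecular identifiers (UMIs, 1 per captured RNA molecule) over 8817 barcodes, and 7645 cells with 151852381 UMIs passed the study's filter. A cell was gated when its mean score over a list of marker genes passed a fixed limit, and no member was in any list. This gave 874 stem, 455 pre-megakaryocyte-erythroid, 1225 erythroid, 517 megakaryocyte, 840 granulocyte-monocyte progenitor, 394 neutrophil, 2116 monocyte, 380 basophil or mast and 12 eosinophil cells. A further 513 cells passed the limits of several lineages and were left out, and 319 passed none. The erythroid markers, among them Klf1 and Epor, summed to 4423 UMIs per 1000000 UMIs (CPM) in the erythroid gate and to between 35.2 and 213 CPM in the other gates. The sort removed cells with lineage markers, so the erythroid gate may have few late erythroblasts, which was not tested. Median depth was 8543 UMIs per cell in the stem gate and 32246 in the erythroid gate, so levels are given as CPM. With 1 library there is no replicate error and no test: brackets give exact 95% intervals that cover counting error only. In such 3′ libraries each molecule counts once whatever its length, so no level was divided by length.

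Alas1 was a myeloid transcript in this marrow. Its level was 21.1 CPM in the stem gate (18.1 to 24.4) and 19.5 CPM in the pre-megakaryocyte-erythroid gate (16.1 to 23.6). It was 17.02 CPM in the erythroid gate (15.7 to 18.4) and 21.4 CPM in the megakaryocyte gate (18.5 to 24.6). Ordered by level, from megakaryocyte through stem and pre-megakaryocyte-erythroid to erythroid, the intervals of neighbours overlapped, while the erythroid interval lay just below the megakaryocyte one. In the granulocyte-monocyte progenitor gate Alas1 stood at 303 CPM (295 to 311), in the neutrophil gate at 485 CPM (470 to 501) and in the monocyte gate at 182 CPM (178 to 186). The basophil or mast gate was in between, at 58.3 CPM (51.9 to 65.3). The 12 eosinophil cells held 43 Alas1 UMIs, 226 CPM (164 to 305), and its interval overlapped those of the gates on either side of it in the order.

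Alas2 was an erythroid transcript. The erythroid gate held 584 Alas2 UMIs, 15.7 CPM (14.4 to 16.98). All other gates together were near the limit of detection: the stem gate held 3 UMIs, the pre-megakaryocyte-erythroid and megakaryocyte gates 2 each, and the granulocyte-monocyte progenitor and monocyte gates 6 each. The neutrophil, basophil or mast and eosinophil gates held 0 UMIs. A floor of 3 UMIs corresponds there to 0.387, 0.579 and 15.8 CPM, and the exact upper limits were 0.476, 0.712 and 19.4 CPM. These few UMIs were set beside haemoglobin UMIs, which free RNA from red cells can bring into any droplet. There were 0.491 Alas2 UMIs per 100 haemoglobin UMIs in the erythroid gate, 0.454 in the stem gate, 0.585 in the pre-megakaryocyte-erythroid gate, 0.524 in the megakaryocyte gate, 0.890 in the granulocyte-monocyte progenitor gate and 0.338 in the monocyte gate. The neutrophil gate had 0 Alas2 UMIs beside 252 haemoglobin UMIs, and the basophil or mast gate 0 beside 301. Counts this low were not read as expression, and the part of free RNA in them was not tested.

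The other 6 enzymes were present in every large gate and highest in erythroid cells. Alad, which joins aminolaevulinate into porphobilinogen, was at 397 CPM in the erythroid gate (390 to 403) and between 26.1 and 64.7 CPM in the 7 other large gates. Uros, which closes the porphyrin ring as uroporphyrinogen, was at 58.6 CPM (56.2 to 61.1) and elsewhere between 5.80 and 9.42 CPM. Urod, which removes carboxyl groups from that ring, was at 223 CPM (219 to 228) and elsewhere between 35.2 and 64.7 CPM. Up to this step the enzymes are cytosolic, and the remaining steps are mitochondrial. Cpox, the coproporphyrinogen oxidase, was at 506 CPM (499 to 514) and elsewhere between 24.3 and 49.4 CPM. Ppox, the protoporphyrinogen oxidase, was at 75.3 CPM (72.5 to 78.1) and elsewhere between 10.2 and 14.9 CPM. Fech, the ferrochelatase that inserts iron, was at 131 CPM (127 to 135) and elsewhere between 14.7 and 24.97 CPM. In each of these 6 genes the erythroid interval lay wholly above those of the other 7 gates. Within the erythroid gate, the highest count in a single cell was 63 for Cpox and 49 for Alad.

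**Figure D1:**
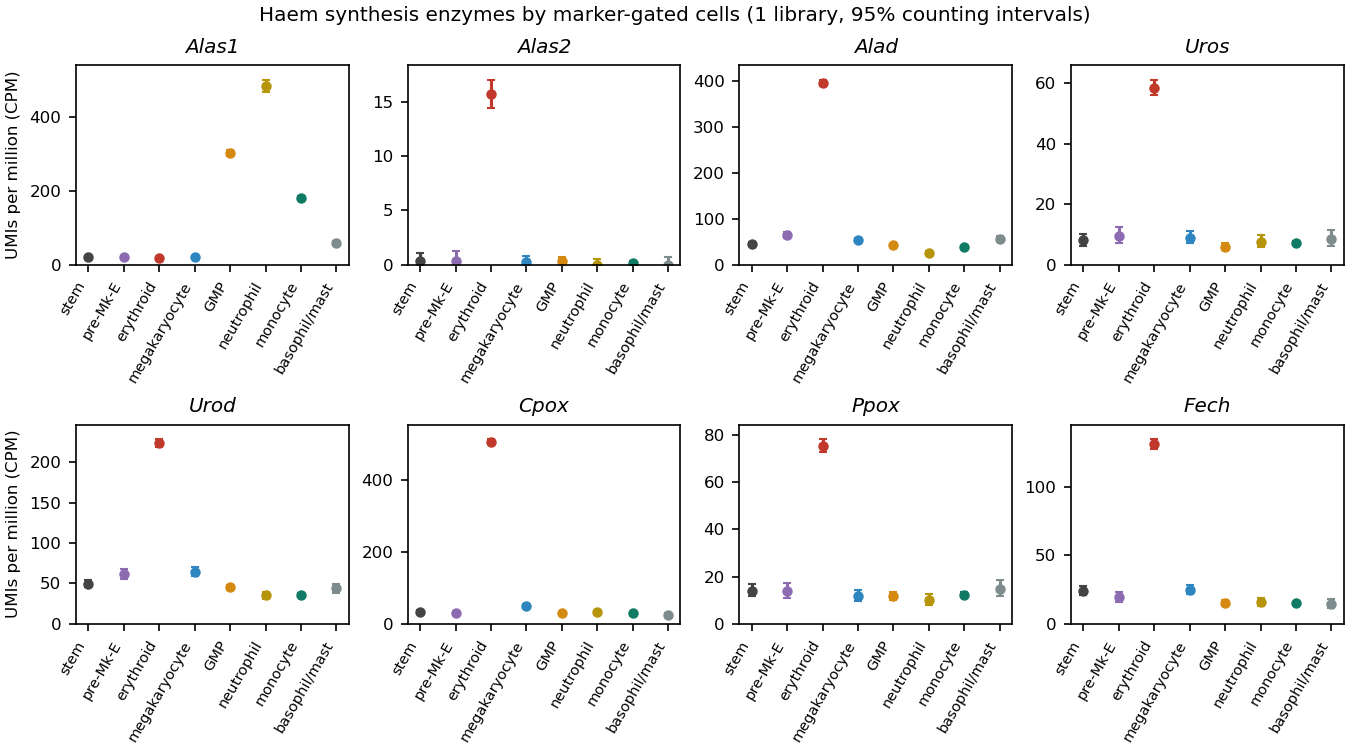
Level of each enzyme in CPM (vertical axes, each from 0 with its own scale) in 8 marker gates (horizontal axes; pre-Mk-E, pre-megakaryocyte-erythroid; GMP, granulocyte-monocyte progenitor) of 1 library, with exact 95% counting intervals as bars. The erythroid point is the highest in 7 panels, while Alas1 is highest in the neutrophil gate, at 485 CPM.

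Set against the stem gate, 7 of the 8 members were at least 2-fold higher in the erythroid gate. Among the 11540 genes with 50 or more UMIs in both gates together, 12.3% were that much higher and 34.2% that much lower, and the median ratio was 0.775. Alas2 was 44.1-fold higher (15.0 to 215), a value that rests on 3 stem UMIs and ran from 39.6 to 86.7 over other gate limits, cell filters, depths and totals, the highest with a stricter cell filter. With the stem cells that had a pre-megakaryocyte-erythroid score left out, the stem gate held 0 Alas2 UMIs and the ratio to a floor of 3 UMIs was 14.1 (exact lower limit 11.4). Cpox was 14.8-fold higher (13.1 to 16.6) and Alad 8.73-fold (7.89 to 9.69). Uros was 7.29-fold higher (5.73 to 9.42), Fech 5.48-fold (4.76 to 6.34), Ppox 5.35-fold (4.45 to 6.48) and Urod 4.49-fold (4.07 to 4.96). The ratio of Alas1 was 0.809 (0.684 to 0.960), which 52.1% of those genes fell below, and under 4 alternatives its interval reached 1. For the 7 other members, between 96.9% (Urod) and 99.4% (Alas2) of the genes had lower ratios. Lists of other cell types also differed between these gates. The macrophage list was at 55.6 CPM in the erythroid gate and 3.67 CPM in the stem gate. The T or NK list was at 26.6 and 84.3 CPM and the B lineage list at 3.73 and 38.4 CPM. Their part in these ratios was not tested.

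Megakaryocytes, which share a progenitor with red cells, did not show the erythroid rise of these enzymes. Of 7 members with enough UMIs, 0 were 2-fold higher and 0 were 2-fold lower than in the stem gate, beside 4.01% of all genes higher and 13.2% lower. Cpox had the highest ratio, 1.44 (1.24 to 1.68), followed by Urod at 1.30 (1.14 to 1.48) and Alad at 1.18 (1.03 to 1.36). The intervals of Alas1, Uros, Ppox and Fech included 1. The pre-megakaryocyte-erythroid gate was alike in this respect. It had 0 of 7 members past 2-fold in either direction, beside 2.84% of all genes higher and 8.57% lower. Alad, at 1.42-fold (1.23 to 1.65), and Urod, at 1.23-fold (1.07 to 1.43), were the only members there whose intervals lay above 1.

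In the myeloid gates Alas1 was the only member past 2-fold in either direction, among 7 with enough UMIs. It was 14.4-fold higher than in the stem gate in granulocyte-monocyte progenitors (12.4 to 16.8), where 6.01% of genes were 2-fold higher and 28.1% lower. In neutrophil-gated cells it was 23.0-fold higher (19.8 to 26.9), beside 6.45% of genes higher and 42.9% lower. The monocyte gate gave 8.63-fold (7.43 to 10.1), beside 9.82% of genes higher and 28.6% lower. Basophil- or mast-gated cells gave 2.77-fold (2.29 to 3.35), beside 7.04% of genes higher and 21.3% lower. The 6 enzymes after it did not follow. Their ratios to the stem gate in these 4 gates ranged from 0.574, for Alad in the neutrophil gate, to 1.25, for Alad in the basophil or mast gate. The median ratio of all genes in these gates ran from 0.583, in the neutrophil gate, to 0.828, in the basophil or mast gate. Fech had ratios from 0.614 to 0.670, and between 29.4% and 56.1% of genes had lower ones.

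Within the granulocyte-monocyte progenitor and monocyte gates, but not the neutrophil gate, Alas1 went with the progenitor marker list, called the granule list here. Cells of each of these gates were put into 4 equal bins by their score over Mpo, Elane, Prtn3, Ctsg and Ms4a3. This grouping was chosen after the data had been seen. In the granulocyte-monocyte progenitor gate Alas1 was at 57.6 CPM in the lowest bin (50.4 to 65.5), then 208 CPM (196 to 221) and 415 CPM (398 to 434), and 503 CPM in the highest (482 to 524). In the monocyte gate it was at 36.9 CPM (32.9 to 41.3), 131 CPM (124 to 137), 209 CPM (201 to 218) and 298 CPM (289 to 308). In both gates each bin was higher than the one before it, with no overlap of intervals. In the neutrophil gate the 4 bins lay between 466 and 493 CPM and their intervals overlapped. Those neutrophil bins already started at 41112 CPM for the granule list, close to the 42236 CPM of the highest progenitor bin. Alad moved the other way across the progenitor bins, from 55.9 CPM in the lowest (48.8 to 63.6) to 32.7 CPM in the highest, and in the monocyte bins it stayed between 38.0 and 40.3 CPM. Median depth was 18287 UMIs in the lowest progenitor bin and 21951 in the highest, and in the monocyte gate 14466 and 22667. The part of depth in these differences was not tested beyond the scaling to CPM.

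**Figure D2:**
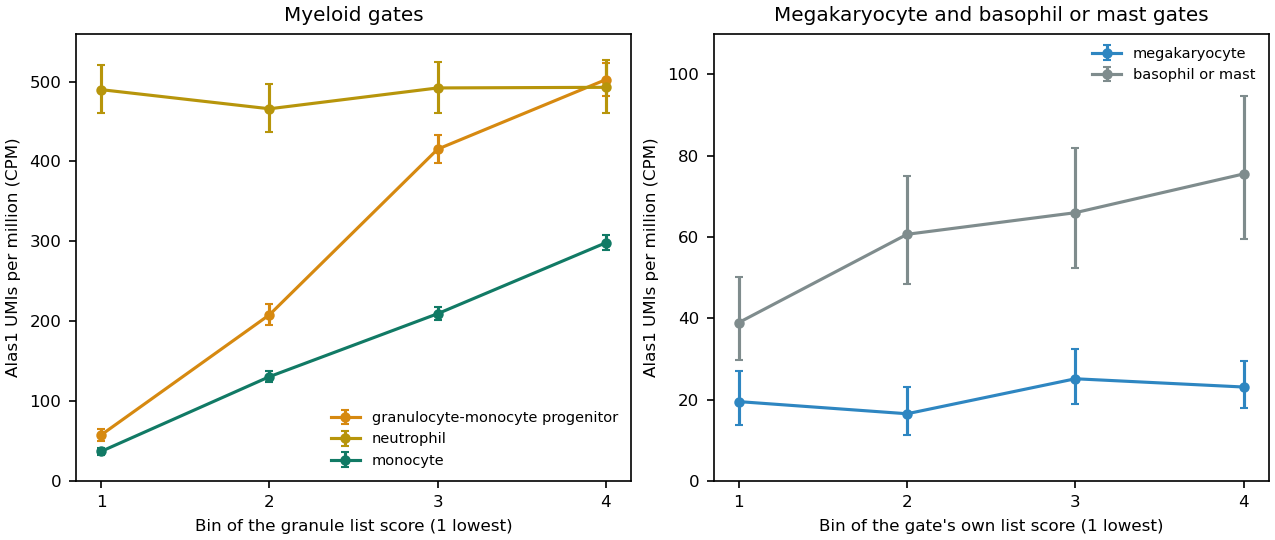
Alas1 level in CPM (vertical axes, from 0) in 4 equal bins of cells per gate, by granule list score in the myeloid gates (left) and by the gate's own list score in the megakaryocyte and basophil or mast gates (right), with exact 95% counting intervals. Progenitor-gated cells go from 57.6 to 503 CPM, neutrophil-gated cells stay between 466 and 493 CPM, and megakaryocyte-gated cells between 16.5 and 25.1 CPM.

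The share of cells with an Alas1 UMI depended on depth. It was 18.1% in the stem gate and 40.0% in the erythroid gate, although the level in CPM was lower in the latter. When every cell was thinned to 5000 UMIs the shares became 9.92% (7.99 to 12.1) and 8.37% (6.88 to 10.1), with 27 stem and 7 erythroid cells too shallow to enter. In the thinned cells Alas1 was seen in 89.3% of neutrophil-gated cells (85.8 to 92.2), 65.04% of granulocyte-monocyte progenitors (61.7 to 68.3) and 50.3% of monocyte-gated cells (48.1 to 52.4). Alas2 was seen in 5.67% of thinned erythroid cells (4.43 to 7.12), in 21.5% before thinning, and in at most 0.443% of the thinned cells of any other gate.

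Along erythroid maturation the use of the isoforms crossed over late. The erythroid cells were divided into 6 bins of 204 or 205 cells by 12 red cell membrane and skeleton genes, none of them a member or a gate gene. Haemoglobin made up 0.00430% of UMIs in bin 1, 0.0170% in bin 3 and 1.37% in bin 6. Alas1 was at 17.5, 18.4, 20.8, 15.3, 15.5 and 14.8 CPM from bin 1 to bin 6, and the intervals of bin 1 (13.1 to 22.9) and bin 6 (11.9 to 18.2) overlapped. Alas2 was at 0 CPM in bin 1 (0 UMIs, where a floor of 3 UMIs is 0.992 CPM and the exact upper limit 1.22 CPM), at 0.164 CPM in bin 2 (1 UMI) and at 0.268 CPM in bin 3 (2 UMIs). It then reached 5.33 CPM in bin 4 (3.81 to 7.26), 17.7 CPM in bin 5 (14.7 to 21.1) and 67.6 CPM in bin 6 (61.3 to 74.4). Each of the last 3 bins was clear of the one before it.

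As a share of the UMIs of both isoforms, Alas2 was 0% in bin 1 (0 of 53 UMIs, exact upper limit 6.72%), 0.885% in bin 2 and 1.27% in bin 3. It was 25.8% in bin 4 (19.1 to 33.4), 53.4% in bin 5 (46.8 to 59.9) and 82.1% in bin 6 (78.4 to 85.3). Over the whole erythroid gate the share was 47.9% (45.1 to 50.8), a mean of stages that hold almost none and stages that hold mostly Alas2. In the stem gate it was 1.66%, in the pre-megakaryocyte-erythroid gate 1.79%, in the megakaryocyte gate 1.04%, in granulocyte-monocyte progenitors 0.105% and in the monocyte gate 0.0742%. While Alas2 went up, the ratio of Alas1 between bin 6 and bin 1 was 0.844 (0.595 to 1.21).

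**Figure D3:**
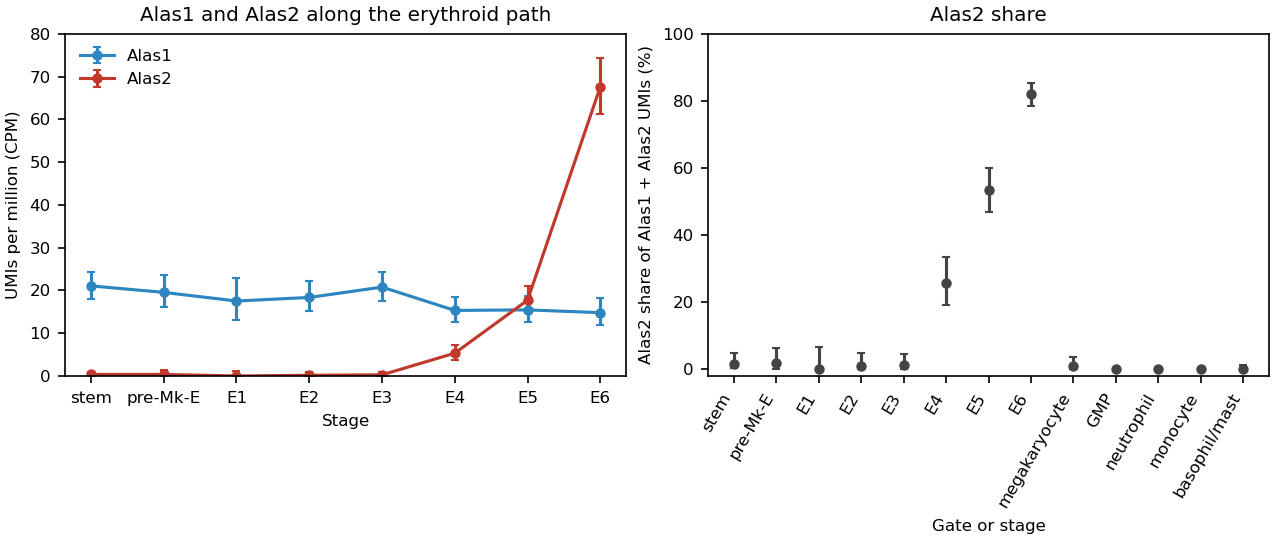
Left, Alas1 and Alas2 levels in CPM (from 0) over 8 stages: the stem gate, the pre-megakaryocyte-erythroid gate (pre-Mk-E) and 6 bins of erythroid cells (E1 to E6). Right, Alas2 as a percentage of Alas1 and Alas2 UMIs in the same stages and in the other gates, with exact 95% intervals; the share is 25.8% in E4 and 82.1% in E6 and stays under 2% outside E4 to E6.

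Alas2 was concentrated in few cells. Of the 584 UMIs, 71.2% were in bin 6, and 263 of the 1225 cells held any. A group of 55 cells, 4.49% of the gate, held 50% of the UMIs, and the most in a single cell was 13. In bin 6, 51 of 204 cells had UMIs of both isoforms, 95 of Alas2 only, 24 of Alas1 only and 34 of neither. UMIs of both isoforms were thus detected under the same barcodes, and at these counts the absence of a UMI does not show the absence of the RNA. Free RNA from myeloid cells can carry Alas1, so it was set beside the granule list. There were 11.5 Alas1 UMIs per 100 granule list UMIs in bin 6, against 1.24 in the granulocyte-monocyte progenitor and monocyte gates and 0.939 in the neutrophil gate. What part of the Alas1 UMIs in a given erythroid cell was free RNA was not tested.

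The enzymes came on in a graded order in which Alas2 was last. Onset was taken as the place along the 8 stages (0, stem; 1, pre-megakaryocyte-erythroid; 2 to 7, erythroid bins 1 to 6) where the level crossed 50% of the rise from the stem gate to the highest stage, which was bin 6 for all 7 members other than Alas1. Alad crossed at 4.56, Cpox at 4.57 and Urod at 4.67, close together between bins 3 and 4. Ppox crossed at 4.83, Uros at 5.28 and Fech at 5.38. Alas2 crossed at 6.33, between bins 5 and 6. With 25% of the rise as the mark, Alad crossed at 2.32, Urod at 2.80, Cpox at 3.06, Ppox at 3.69, Fech at 3.76, Uros at 4.28 and Alas2 at 5.96. The level of Alas1 was highest in the stem gate, so it had no onset on this path. Since 7 members were still highest in the last bin, these places are relative to the stages that the sort retained, and a later maximum would move them.

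Entry into the erythroid gate was marked by Alad and Cpox. From the pre-megakaryocyte-erythroid gate to erythroid bin 1, Cpox was 3.88-fold higher (3.21 to 4.69), from 29.7 to 115 CPM. Alad was 2.80-fold higher (2.44 to 3.20), from 64.7 to 181 CPM. They were the 2 of 7 members past 2-fold, beside 2.58% of the 9458 genes with enough UMIs. Ppox, Urod and Fech were 1.86-fold (1.34 to 2.58), 1.75-fold (1.502 to 2.045) and 1.71-fold higher (1.29 to 2.26). Uros, at 0.737 (0.422 to 1.24), and Alas1, at 0.897 (0.633 to 1.25), had intervals that included 1. Median depth in bin 1 was 12885 UMIs per cell, against 31133 in bin 2. Other lists also differed between the pre-megakaryocyte-erythroid gate and bin 1. The granule list went from 436 to 165 CPM, the T or NK list from 351 to 209 CPM and the stem list from 166 to 46.9 CPM. The megakaryocyte list went from 154 to 20.5 CPM and the basophil or mast list from 153 to 55.9 CPM. The macrophage list went up, from 6.93 to 32.1 CPM. Their part in these ratios was not tested.

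From erythroid bin 1 to bin 6, 7 of the 8 members were at least 2-fold higher, beside 10.7% of all genes. Uros had the steepest measurable course, from 6.94 to 129 CPM, or 18.5-fold (12.05 to 30.1). Alas2, with 0 UMIs in bin 1, had a ratio of 68.2 to a floor of 3 UMIs in bin 1, with an exact lower limit of 55.2. Fech was 7.78-fold higher (6.36 to 9.61), Cpox 7.76-fold (6.96 to 8.67) and Ppox 5.23-fold (4.15 to 6.69). Alad, at 3.61-fold (3.31 to 3.96), and Urod, at 3.36-fold (2.99 to 3.79), had the smallest ratios of the 7. Lists of other cell types differed between the end bins. The T or NK list summed to 209 CPM in bin 1 and 5.20 CPM in bin 6. It was higher in the neutrophil gate, at 1546.5 CPM, and 2 of its 4 genes had 0 UMIs in bin 1. The macrophage list summed to 32.1 and 59.2 CPM, with 3 of its 5 genes at 0 UMIs in each of these bins. Whether T or NK cells or macrophages were among the erythroid cells was not tested. The pre-megakaryocyte-erythroid list summed to 816 and 640 CPM and the basophil or mast list to 55.9 and 18.4 CPM. The granule list summed to 165 CPM in bin 1 and 129 CPM in bin 6, the megakaryocyte list to 20.5 and 28.4 CPM, and the stem list to 46.9 and 118 CPM. Of that stem list, Mllt3 alone made up 41.0 CPM in bin 1 and 113 CPM in bin 6, while Procr and Fgd5 had at most 1 UMI in either. Their part in the levels of the enzymes was not tested.

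**Figure D4:**
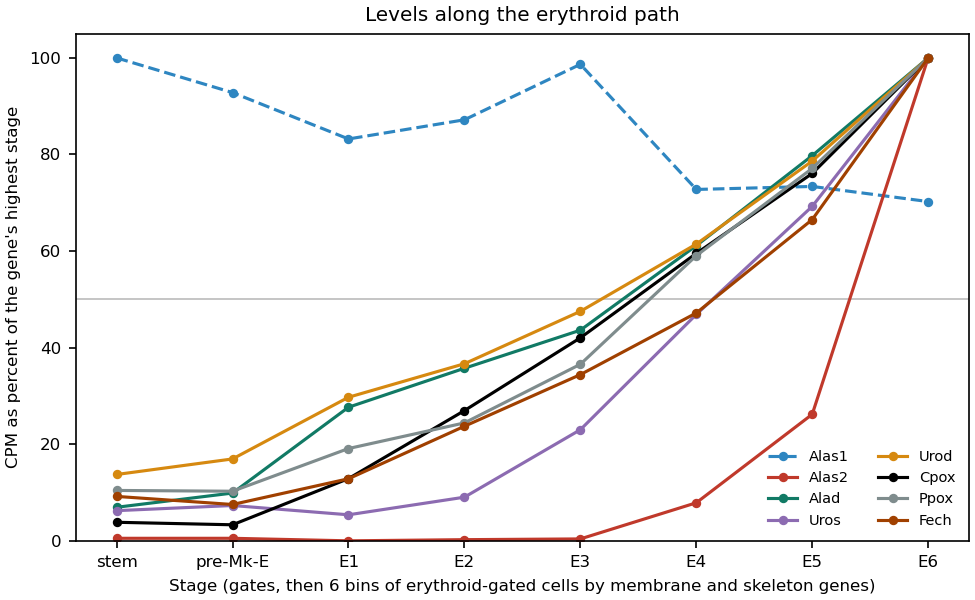
Level of each enzyme as a percentage of its highest stage (vertical axis, from 0) over 8 stages (stem gate, pre-megakaryocyte-erythroid gate, 6 erythroid bins E1 to E6), with a grey line at 50%. The solid lines of 6 enzymes rise in a fan from E1, the red Alas2 line stays near 0 until E4, and the dashed Alas1 line is highest in the stem gate.

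The pattern of each isoform over groups of cells was shared with other genes. Over 14 groups (the 8 gates other than the erythroid one, and its 6 bins) of the same library, Pearson's r of log2(CPM + 1) was computed among 11573 genes with 200 or more UMIs. The genes closest to Alas1 were Trem3 and Dmkn (both r = 0.992), Cldn15 (r = 0.988), Mtus1 (r = 0.977) and Lta4h, the leukotriene A4 hydrolase (r = 0.976). The genes closest to Alas2 were Gm20161 (r = 0.988), Gm867, Apol8 (both r = 0.987), Dusp8 (r = 0.983) and Slc30a10, a manganese transporter (r = 0.972). Among the members, the values for pairs of the 6 downstream enzymes ran from 0.813, for Uros with Cpox, to 0.987, for Alad with Urod. Alas2 with these 6 ran from 0.748 to 0.851, and Alas1 with the other 7 from -0.745 to -0.435. The groups share 1 library and differ in depth, so these values are descriptions.

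Genes that serve the pathway were counted from lists. The 9 carriers and helpers of haem synthesis had a median ratio of erythroid to stem level of 3.66 (all genes, 0.775). Of these, 6 were 2-fold higher in the erythroid gate and 0 were lower, beside 12.3% of all genes higher and 34.2% lower. They were Abcb6 at 14.1-fold (9.56 to 21.6), Slc25a38, which brings glycine into the mitochondrion, at 9.05-fold (7.14 to 11.6), Tmem14c, needed for porphyrin transport, at 8.46-fold (7.97 to 8.99), Abcb10 at 7.14-fold (6.02 to 8.53), Fam210b at 3.66-fold (3.05 to 4.44) and the iron carrier Slc25a37 at 2.53-fold (2.20 to 2.92). The lowest 3 were Slc25a28, the iron carrier of other tissues, at 0.588 (0.515 to 0.673), Pgrmc1 at 0.868 and Clpx at 1.18. Thus the paralogues Slc25a37 and Slc25a28 lay on opposite sides of the stem level.

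Of 9 genes of haem use, breakdown and sensing, 8 had enough UMIs, and 3 were 2-fold higher and 2 were 2-fold lower, beside 12.3% of all genes higher and 34.2% lower. The higher genes were Blvrb, a biliverdin reductase, at 13.5-fold (12.6 to 14.4), Hebp1, a haem-binding protein, at 11.5-fold (9.98 to 13.4) and Eif2ak1, the kinase that slows translation when haem is scarce, at 2.82-fold (2.44 to 3.28). The lower genes were Hmox2, a haem oxygenase, at 0.388 (0.353 to 0.427), and Bach1, a repressor released by haem, at 0.417 (0.371 to 0.469). Hmox1, the inducible haem oxygenase, had 9 erythroid and 36 stem UMIs, below the minimum of 50, with a ratio of 0.0567 (0.0240 to 0.120). Of 6 genes of iron-sulfur clusters and iron sensing, 2 were 2-fold higher and 0 were lower, beside the same shares of all genes. These were Glrx5 at 7.76-fold (7.22 to 8.36) and Aco1, an iron-regulatory protein, at 2.10-fold (1.73 to 2.57). Ireb2, the other iron-regulatory protein, had a ratio of 0.884 (0.776 to 1.01), and the lowest was Isca1 at 0.587 (0.537 to 0.643).

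**Figure D5:**
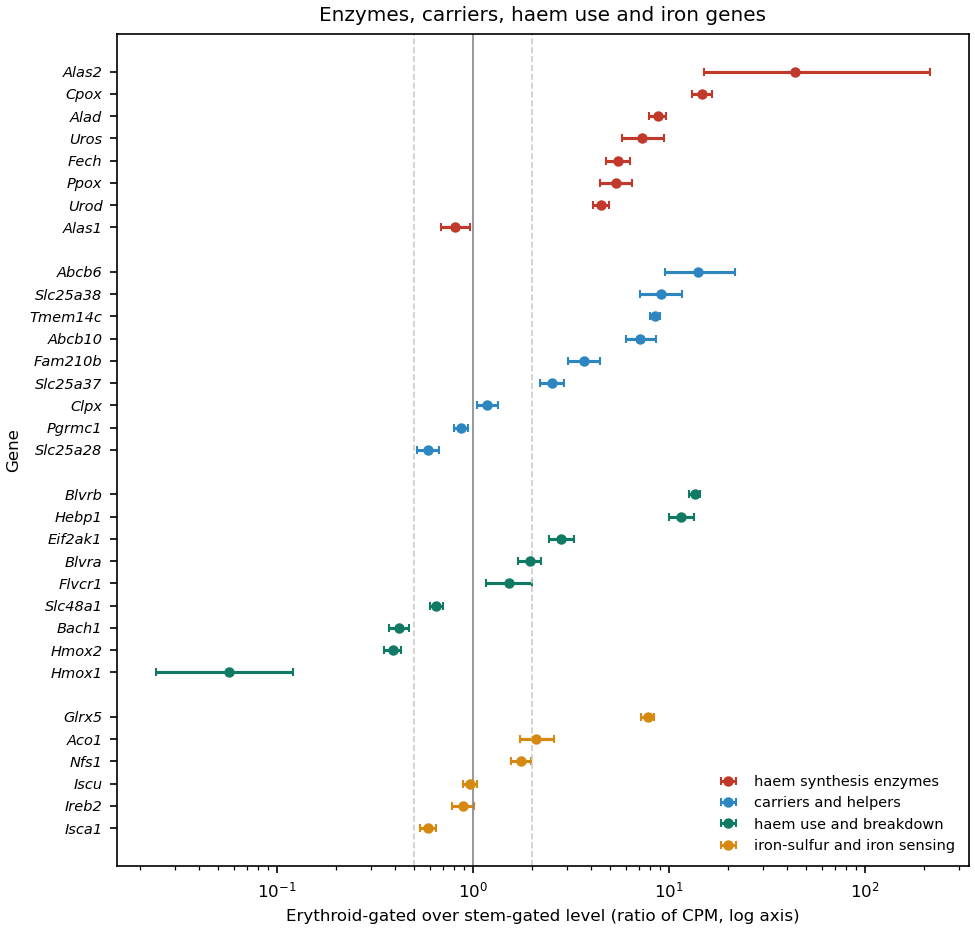
Ratio of the erythroid-gated to the stem-gated level (horizontal log axis; lines at 0.5, 1 and 2) of the 8 enzymes and of 3 lists of genes that serve haem, with exact 95% counting intervals. Alas2 is highest, at 44.1 with a wide interval, and Alas1 is at 0.809. Of the carriers and helpers, 6 of 9 lie beyond 2, beside 12.3% of all genes.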

How the data were processed

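The authors deposited raw UMI counts per gene and barcode, which the file header and the study's methods trace to 10x Chromium 3′ chemistry, Cell Ranger 6.0.2 and the mm10 reference; the labels describe a bulk kit instead. The study's filter was applied: cells needed between 1000 and 50000 UMIs, between 1000 and 6500 detected genes, and a mitochondrial share below 7%. The members and lists were chosen with earlier results of these data known. A gate score was the mean over a list of log2(UMIs per 10000 + 1), and limits were set from the distributions of these scores, with no member read. A cell past the limits of several lineages was left out as a possible doublet, except where a list yielded to another. The pre-megakaryocyte-erythroid list yielded to the stem, erythroid, megakaryocyte and basophil or mast lists. The granulocyte-monocyte progenitor list yielded to the neutrophil, monocyte, basophil or mast and eosinophil lists. The parts of this rule concerning stem cells and the progenitor list were set after the overlap of scores was seen. Scrublet (scanpy 1.11.5) marked 268 cells (3.51%), removed in an alternative. UMIs were summed per gate. Shares have Clopper-Pearson intervals, levels exact Poisson and ratios exact conditional binomial ones, and a count of 0 was given a floor of 3 UMIs. Named genes were the 8 members, list genes past 2-fold plus up to 3 of the lowest of a list, and the 5 genes most alike each isoform. The ratio code was tested on simulated data: for 11535 genes of the erythroid and stem gates, 95.7% of the intervals held the true fold. Gene positions came from GENCODE M21 and promoters from RefSeq (GRCm38.p6). Some genes of the carrier and iron lists are not reported here and enter no count. Python 3.11.15, scipy 1.17.1 and pandas 2.3.3 were used.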

Additional observations from a re-analysis of the deposited data

Results flagged for a closer look

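Barcodes outside the study's cell filter, which entered no comparison, also held Alas1 or Alas2 UMIs above the limit that a count of 0 allows. In the 385 barcodes removed for their mitochondrial share alone, Alas2 was at 8.76 CPM (5.55 to 13.1) and Alas1 at 63.6 CPM (54.3 to 74.0). In the 213 barcodes at or above an upper limit, Alas2 was at 4.20 CPM (3.13 to 5.53) and Alas1 at 51.2 CPM (47.2 to 55.4). In the 574 barcodes at or below a lower limit, Alas1 was at 27.2 CPM (17.3 to 40.9), with 2 Alas2 UMIs, which is under that limit. The cells kept had 4.34 CPM of Alas2 and 135 CPM of Alas1.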

How the results depend on the processing

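The ratios to the stem gate, the Alas2 share, the count of members 2-fold higher in erythroid cells and the onset were recomputed with stricter and looser gate limits, without Scrublet calls, with other cell filters and with cells thinned to 5000 UMIs. These ratios, the count and the onset were also recomputed with other totals and weights, and the onset with other stage axes. The granule bins, the other ratios between bins or gates, the gene lists and the correlations were not. The count of members stayed at 7, and the Alas2 share of 47.9% ran from 46.3% to 50.5%. The Alas1 ratio of 0.809 ran from 0.774 to 0.883, but its interval reached 1 with stricter gate limits (upper end 1.002), the stricter cell filter (1.06), thinning (1.06) and without mixed stem cells (1.20). Alas2 was the last of 7 members under all 12 alternatives run for the order, while Alad and Cpox exchanged the first place. With 10 bins Alas2 reached 50% of its rise at stage 11, the last of that path, and at 25% of the rise it did so at stage 6 in place of stage 7. When stem cells past the pre-megakaryocyte-erythroid limit were left out, an alternative chosen after seeing the data, the 298 stem cells left held 0 Alas2 UMIs and the ratio of the erythroid level to a floor of 3 UMIs was 14.1, with an exact lower limit of 11.4. The size of the Alas2 ratio to the stem gate therefore rests on 3 UMIs. No paired analysis was possible because there was 1 library.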
